A study of Mus musculus with 12 samples.

Results

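The MidK1 course followed X-linked allelic expression in mouse cells on days 35, 52 and 56 of reprogramming, and 3 of the 12 libraries of the series belong to it. Sites were single-base variants with at least 20 covering reads in both tables of a step, the first from day 35 to day 52 (17 days) and the second from day 52 to day 56 (4 days). This gave 1944 sites shared in at least 1 step, of 6488 sites with that coverage in the whole series, and 245 genes tested in at least 1 step, of 399 genes. Of these genes, 225 were tested in both steps and could be sorted into early, late and unchanged genes.

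The study measured poly(A) RNA allele by allele along the X chromosome in mouse embryonic fibroblasts and in cells derived from them with the Sendai virus vector SeVdp(fKOSMaB). MidK1 cells carried this vector and received 30 nM Shield1, a small ligand under which proteins that carry a destabilising domain persist. LowK cells carried the same vector without Shield1 and were taken on the same 3 days, and the fibroblasts (MEF1, MEF2) carried no vector and received no agent. Each day of a course is 1 library, so every test below compares libraries and covers counting error only, not the spread between cultures. The sources used here name neither the strains nor the parental origin of the X chromosomes nor any sorting of cells.

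In female cells 1 X chromosome is silenced early in development, coated by the Xist RNA and kept silent by repressive chromatin and DNA methylation. Reprogramming to pluripotency can reverse this silencing, gene by gene, so that both alleles are read. Some X-linked genes escape silencing and are read from both copies in ordinary somatic cells.

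The readout is the reference share, the percentage of reads over a gene's shared sites that do not carry the variant allele. In the fibroblasts this share was low for most genes. A rising share means that a larger part of the reads came from the reference allele. A bulk share cannot separate more cells reading that allele, more RNA of it per cell and less RNA of the variant allele. The MidK1 libraries had 2188 to 2398 sites with at least 20 reads, 139148 to 145784 reads over those sites, and a median coverage of 36 to 37 reads per site. Positions at which all reads are reference are not listed. The lowest variant percent in these tables was 10 to 11.1, and the lowest variant count was 5 reads. A site close to full reference thus drops out of the shared set, and a thinly read one does so at a lower share.

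The following sites show what was counted, 1 for each pattern described below. Each sequence is 29 bases of the transcript, 5′ to 3′, with the variable base in capitals at position 15 counted from the 5′ end. The capital is the reference base, and the letters come from the GENCODE M21 transcripts of the mm10 assembly. The reads at Uba1 (C15T, coding, X:20682457-20682485, plus strand) and Klhl13 (G15T, untranslated region, X:23219636-23219664, minus strand) moved early. The reads at Timm17b (T15C, coding, X:7906139-7906167, plus strand) moved late, those at Magt1 (C15T, untranslated region, X:105968791-105968819, minus strand) fell and then rose, those at Dynlt3 (A15G, coding, X:9657097-9657125, minus strand) were at a plateau, and those at Rlim (C15T, coding, X:103963599-103963627, minus strand) were nearly all variant throughout.
Uba1: aacgatgaaagcggCgaggacgtcgaggt
Klhl13: tttaaaaattgactGtcaggtcaaataaa
Timm17b: gaagacccctggaaTtccatcagcagtgg
Magt1: gagacagatgggaaCcagaagttcaccct
Dynlt3: aataacatcaaccaAtggactgcaagcat
Rlim: agagctgaaagaagCaggtcccctctgca

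At the printed Uba1 site 106 of 413 reads carried the reference C on day 35, 250 of 543 on day 52 and 263 of 541 on day 56. The Klhl13 site had 5 of 37, 24 of 49 and 27 of 52 reference reads on the same days. The Timm17b site had 4 of 26, 3 of 47 and 8 of 32. Both early sites were higher by day 52, while the Timm17b site was lower on day 52 and higher on day 56. At the Magt1 site the reference reads were 9 of 72, 3 of 56 and 9 of 63. Dynlt3 had 73 of 130, 54 of 90 and 52 of 96, above 50% reference on every day. Rlim had 0 of 74, 0 of 71 and 4 of 85.

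Between day 35 and day 52 a small set of genes moved far while the middle of the distribution stayed in place. Of 234 genes tested over 1718 shared sites, 18 rose (7.69%) and 2 fell (0.855%), where a call is an adjusted p under 0.05 in a two-sided Fisher's exact test, adjusted over all genes of the step, together with a difference of at least 10 points. The median change over all genes was 0.106 points, with 119 genes up and 102 down at any size. Between day 52 and day 56, 16 of 236 genes rose (6.78%) and 0 fell (0%). In this shorter step the whole distribution shifted by a median of 2.37 points, 174 genes were up and 53 down at any size, and 61 genes rose and 0 fell by adjusted p alone. The fibroblast libraries MEF1 and MEF2 also differed, by a median of -1.70 points. Of 174 genes 126 were lower in MEF2, and by adjusted p alone 52 were lower and 1 higher. MEF2 listed variants down to 5% and MEF1 down to 10.2%. Whether the shift in the second step goes with the day or with the library was not tested. Over the full course 30 of 238 genes rose (12.6%) and 0 fell, with a median change of 2.81 points. Just inside the size limit were Atp6ap2 at 10.4 points in the first step and Gm21887 at 10.6 in the second, and just outside it Usp9x at 9.15 and Vbp1 at 9.86 points. When each step was centred on its median, 8 genes were called in the second step.

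**Figure D1:**
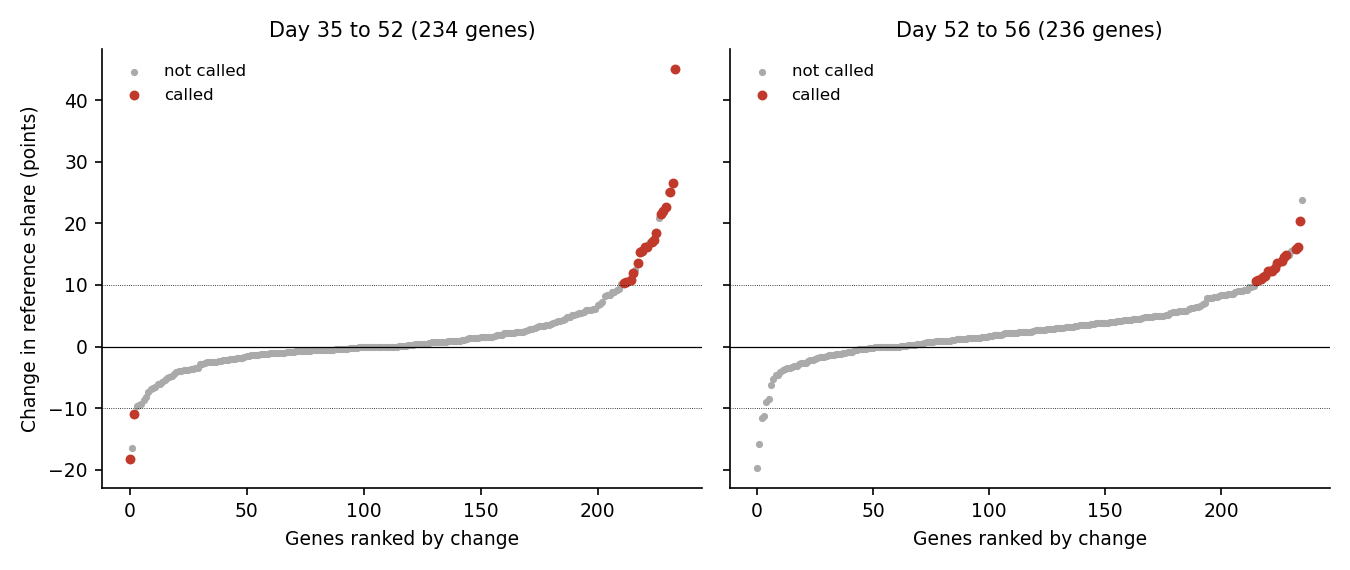
Change in reference share (percentage points) for every tested gene, ranked from the most negative to the most positive, from day 35 to 52 on the left and day 52 to 56 on the right. Red points are called genes and dotted lines mark 10 points. On the left most genes lie close to 0 with a steep right end, and on the right the ranked curve crosses 0 earlier, with 174 of 236 genes above it.

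The 225 genes tested in both steps were sorted as follows. There were 14 early genes, called higher in the first step only, and 10 late genes, called higher in the second step only. Another 6 genes were called in both steps. A plateau was held by 12 genes, which were called in neither step, had both 95% Newcombe intervals of the change within 10 points of 0, and stood at 20% or more on day 35. Low and steady genes, defined in the same way but under 10% on day 35, numbered 92 (40.9%). A further 5 genes were steady between these limits, and 86 were unresolved, uncalled with at least 1 interval reaching past 10 points. Sat1, for example, was among them with 1273 reads on day 35 and a first change of 8.81 points (interval 5.64 to 12.1). The unresolved genes had a median of 98 reads on day 35, against 402 for the low and steady genes and 1566 for the plateau genes.

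**Figure D2:**
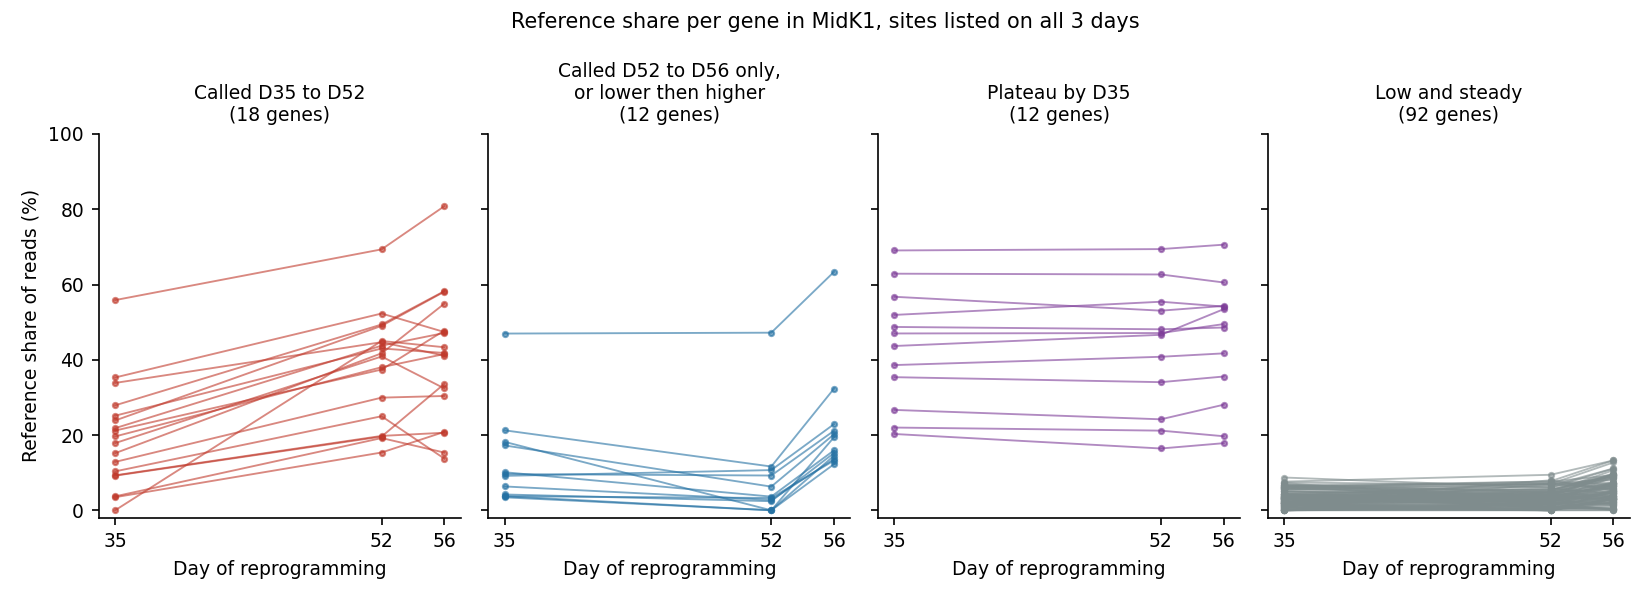
Reference share (%) of each gene on days 35, 52 and 56 in MidK1, 1 line per gene, over sites listed on all 3 days. From left to right the panels hold 18 genes higher at day 52, 12 genes called later or lower and then higher, 12 plateau genes and 92 low and steady genes. Lines in the second panel mostly dip or stay level before day 56, and those in the third are flat between about 16% and 71%.

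The early gene with the most reads was Uba1, which encodes the enzyme that activates ubiquitin. It stood at 21.8% on day 35, 43.8% on day 52 and 47.1% on day 56, over 14 sites with 1512, 3204 and 2328 reads. All 14 sites were higher on day 52 than on day 35. The rise was 21.9 points (95% Newcombe interval 19.2 to 24.6, adjusted Fisher p = 7.3e-48), and the second step added 3.26 points, which did not pass (adjusted exact p = 0.057). Uba1 lies at X:20658326-20683179 on mm10, with 18 of its listed sites in coding sequence and 1 in an untranslated region. In MEF1 its share was 4.68%.

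Rbmx2, an RNA-binding protein of the spliceosome, gave 23.9% on day 35, 49.0% on day 52 and 58.1% on day 56 over 9 sites. Its first change was 25.1 points (interval 18.8 to 31.1, adjusted exact p = 3.81e-12) and its second 9.08 points, below the size limit though its adjusted p was 0.0184. Praf2, a membrane protein of the early secretory pathway, followed the same order at 27.9%, 49.4% and 58.2% over 6 sites. These 2 genes kept climbing in value after day 52, without a call in the second step.

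Other early genes were level or lower on day 56. Lamp2, a major lysosomal membrane protein, had 25.1%, 43.0% and 41.8% over 24 sites. Timp1, a secreted inhibitor of matrix metalloproteinases, had 35.3%, 52.3% and 47.4% over 4 sites. Sept6, a septin of the cytoskeleton, had 12.9%, 29.9% and 30.4% over 13 sites. None of these 3 genes changed by 10 points after day 52. Ftsj1, a tRNA methyltransferase, had 33.8%, 44.7% and 41.1%, and its change over the whole course, 7.24 points, was under the size limit.

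The least stable early genes were read thinly. Enox2, a cell surface oxidase, had 17.9%, 40.9% and 32.4% over 4 sites with 137 to 142 reads a day. Chm, an escort protein for Rab GTPases, had 10.3%, 25% and 13.7% over 5 sites. Its value on day 56 was close to that on day 35, and the change over the whole course was 2.86 points (adjusted exact p = 0.633). Renbp, an enzyme of amino sugar metabolism, had 3.70%, 19.2% and 15.3%. Wdr45, an autophagy protein, rested on 1 site, with 0 of 21 reference reads on day 35 and 45.0% of 20 reads on day 52.

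Pcsk1n and Firre rose from low shares. Pcsk1n encodes proSAAS, an inhibitor of a prohormone convertase, and gave 3.48%, 15.4% and 20.8% over 7 sites with 1328 to 1900 reads. Firre, a long noncoding RNA known to escape silencing, gave 9.30%, 19.8% and 20.6% over 14 sites. Porcn, the acyltransferase that prepares Wnt proteins for secretion, gave 19.6%, 38.0% and 41.5% over 4 sites.

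Across the 14 early genes the median was 17.7% on day 35 and 41.1% on day 56. The median second change was -0.175 points, while all 236 genes had a median of 2.37 points in that step. Early genes are by definition uncalled in the second step, and a high value on day 52 enters both changes with opposite sign. A small second change is thus partly built into the class and was not tested here. The spread within the group was wide, with second changes from -11.3 to 9.08 points. Of 7 early genes measured at shared sites in MEF1, 5 had already been called higher on day 35 than in MEF1, a comparison in which 25 of 153 genes were called (16.3%).

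Genes called in both steps took 2 courses. Klhl13, an adaptor of a cullin ubiquitin ligase, climbed from 15.2% to 41.7% and then 54.9% over 4 sites with 112, 151 and 173 reads. Its total rise of 39.7 points (interval 29.0 to 48.8, adjusted exact p = 1.62e-10) was the largest of any gene with more than 1 site. All 4 sites rose in the first step and all 5 shared sites rose in the second. Over the sites listed on all 3 days alone, its second change was not called. Klhl13 lies at X:23219271-23365082 on the minus strand.

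Atp6ap2, an accessory subunit of the vacuolar proton pump, rose by 10.4 points and then by 14.9 points, from 9.20% to 19.6% and 33.6% over 10 sites. Every one of its 10 shared sites in the first step and 12 in the second was higher at the later day. Bgn, the matrix proteoglycan biglycan, was already at 55.9% on day 35 and reached 69.3% and 80.8% over 9 sites. The reference allele of Bgn was thus the more read of the pair on all 3 days, whereas MEF1 had 3.72%. Gm21887, near the distal end of the chromosome, gave 21.2%, 37.4% and 47.8%. Its 7 sites ran from 0% to 73.2% on day 35, and near-identical copies could take some of its reads, which makes the value uncertain.

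Magt1 and Sms fell and then rose. Magt1, a subunit of the oligosaccharyltransferase linked to magnesium transport, had 17.2% on day 35, 6.29% on day 52 and 20.2% on day 56. All 11 of its sites were lower on day 52, and 10 of 11 were higher on day 56. Sms, spermine synthase, had 10 of 55 reference reads on day 35, 0 of 48 on day 52, and 19.4% of 67 reads on day 56, over 2 sites. Its second change was called over 5 sites, from 0 of 121 to 20 of 147 reads. Neither gene differed by call between day 35 and day 56, with changes of 2.61 points for Magt1 (adjusted exact p = 0.478) and 1.22 points for Sms (adjusted exact p = 1).

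**Figure D3:**
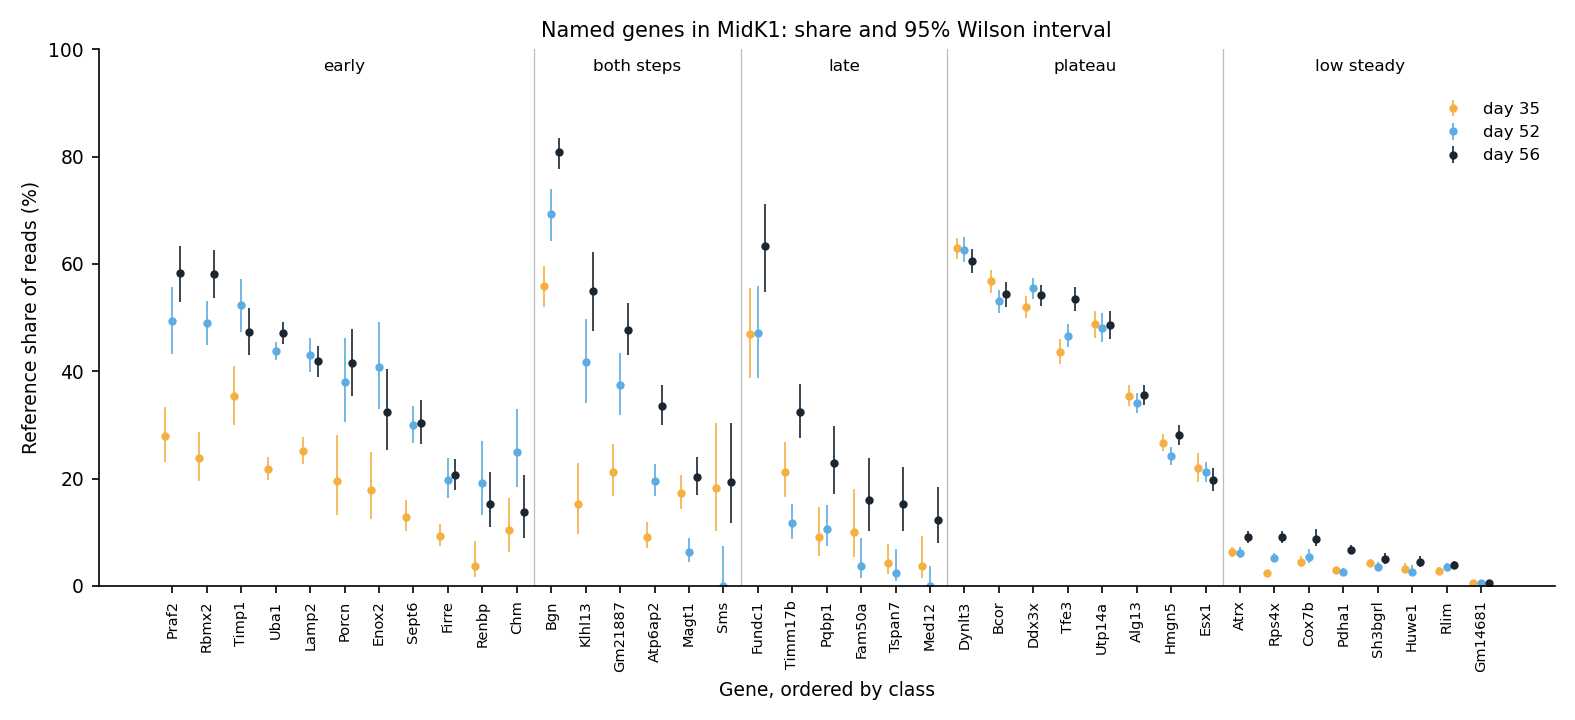
Reference share (%) of the named genes on day 35 (orange), day 52 (blue) and day 56 (black), with 95% Wilson intervals for counting error. Genes are ordered by class along the x axis. In the early block the orange points lie below the other colours, in the late block the black points stand alone above them, and in the plateau block the colours nearly coincide.

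The late genes rose within 4 days. Timm17b, a subunit of the inner mitochondrial membrane translocase, had 21.2% on day 35, 11.6% on day 52 and 32.3% on day 56 over the 7 sites listed on all days. Its second change was 20.4 points over 8 sites (interval 14.4 to 26.3, adjusted exact p = 2.45e-09), and all 8 sites rose. All 7 sites had been lower on day 52 than on day 35, so the rise over the whole course was 11.1 points. Fundc1, a mitophagy receptor of the outer mitochondrial membrane, stood apart with 47.0%, 47.2% and 63.4% over 3 sites.

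Most of the other late genes rose from low shares. Med12, a subunit of the Mediator kinase module, had 3.74%, 0% of 101 reads and 12.3%. The upper 95% Wilson bound for Med12 on day 52 was 3.66%, under its day 56 share. Prdx4, a peroxiredoxin of the endoplasmic reticulum, had 6.34%, 2.77% and 13.6% over 5 sites. Tspan7, a tetraspanin, had 4.21%, 2.42% and 15.2% over 3 sites.

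Pqbp1, a splicing factor that binds polyglutamine tracts, had 9.15%, 10.7% and 22.9% over 2 sites. Ebp, a sterol isomerase of cholesterol synthesis, had 9.63%, 9.24% and 21.1% over the 9 sites listed on all days. Its 10 sites shared in the first step gave 23.7% and 21.4%, so its low level rests on leaving out 1 site. Neither was called in the first step. Fam50a, a nuclear protein, had 10.1%, 3.64% and 15.9%, and Araf, a RAF family kinase, had 3.73%, 3.28% and 13.2%.

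Both steps use the same day 52 library, so a low value on day 52 enters both changes with opposite sign. Of the 10 late genes 8 were lower on day 52 than on day 35 in value, by up to 9.62 points. Measured from day 35 to day 56, 5 of the 10 were called higher (Timm17b, Fundc1, Tspan7, Pqbp1 and Ebp). Over all genes the share called higher was 12.6%. The day 56 reads that placed these 10 genes in the class also enter this comparison, so the count is partly built in. For Prdx4 the change over the whole course was 7.28 points, under the size limit.

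The first change was also set against the second over sites listed on all 3 days, as a Wald test with adjustment over 225 genes. Calls again needed an adjusted p under 0.05 and 10 points. The day 52 share enters both changes, and largely the same reads sorted the genes into classes. This contrast therefore gives no independent support for the classes. The first rise was larger in 8 genes (3.56%), namely Chm, Enox2, Ftsj1, Lamp2, Rbmx2, Sept6, Timp1 and Uba1. The second was larger in 13 genes (5.78%), including Timm17b, Med12, Magt1, Prdx4, Tspan7, Fam50a, Ebp and Sms. For Magt1 and Sms this followed a called fall in the first step, without a called change over the whole course. For Uba1 the first change exceeded the second by 18.6 points (SE 2.30), and for Timm17b it fell short of it by -30.3 points (SE 5). Of the 14 early genes 6 thus lacked a difference between steps that passed, Porcn and Praf2 among them.

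Neighbouring sites are often covered by the same read, and that read then counts at each of them. With sites at least 300 bases apart, 11 genes were called in the first step and 6 in the second. Among the named genes, the calls of Uba1, Klhl13, Rbmx2, Lamp2, Sept6, Enox2, Renbp and Atp6ap2 in the first step passed there too, as did those of Timm17b, Atp6ap2 and Pqbp1 in the second. The calls of Magt1, Sms, Bgn and Gm21887 did not pass in either step, and those of Praf2, Porcn, Timp1, Chm and Firre in the first and of Klhl13, Fundc1, Med12, Tspan7 and Fam50a in the second did not pass.

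Plateau genes were read from both alleles by day 35 and stayed there. Dynlt3, a light chain of cytoplasmic dynein, had 62.9%, 62.7% and 60.5% over 21 sites with 1594 to 2306 reads. Its first change was -0.207 points (interval -3.30 to 2.87). Bcor, a corepressor of Polycomb type complexes, had 56.7%, 53.1% and 54.3% over 29 sites. Ddx3x, an RNA helicase known to escape silencing, had 51.9%, 55.4% and 54.1% over 15 sites. Utp14a, a ribosome assembly factor, had 48.7%, 48.1% and 48.6% over 11 sites. Every site of Dynlt3, Ddx3x and Utp14a lay between 10% and 80% on all 3 days, so their sums represent their sites well.

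Tfe3, a transcription factor that acts in pluripotent cells, lay within the plateau limits at 43.7%, 46.6% and 53.4% over 20 sites. Its second change of 6.04 points passed on adjusted p (0.000515) but not on size. Wdr13 had 47.0%, 47.1% and 49.5%, Pbdc1 38.6%, 40.8% and 41.7%, and 1810030O07Rik 69.1%, 69.4% and 70.6%. Alg13, a subunit of an early enzyme of N-glycosylation, had 35.4%, 34.1% and 35.6% over 36 sites. Tmsb4x, an actin-sequestering peptide, rested on 1 site with 20.3%, 16.4% and 17.8% of 970 to 1287 reads.

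In 2 of the plateau genes the sum hides a mixture of sites. Esx1, a homeobox gene of the placenta, summed to 22.0%, 21.2% and 19.7% over 14 sites, but 8 of the sites were under 10% on each day and the highest reached 77.9% to 83.9%. Hmgn5, a nucleosome-binding protein, summed to 26.7%, 24.2% and 28.1% over 10 sites, of which 4 were under 10% and 1 was over 80% on each day. Their summed shares in LowK were similarly level, at 19.7%, 19.97% and 18.5% for Esx1 and 24.8%, 24.6% and 23.7% for Hmgn5.

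The fibroblast values divide the plateau genes. At sites shared with day 35, MEF1 already had 43.7% for Pbdc1, 37.7% for Ddx3x and 31.3% for Utp14a. MEF1 had 5.99% for Dynlt3, 2.53% for Tfe3, 4.29% for 1810030O07Rik and 2.11% for Tmsb4x, and no reference read for Wdr13. Hmgn5 could be compared at 2 sites only, which had 8.20% in MEF1 and 1.36% on day 35 and do not stand for its summed share. The plateau genes were chosen for their day 35 share, so no count of calls against MEF1 is given for them. The fibroblast share of Bcor, Alg13 and Esx1 was not measured at shared sites.

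Low and steady genes made up the largest class. Their median share was 3.11% on day 35, 3.01% on day 52 and 4.79% on day 56, and the 62 measured in MEF1 had a median of 3.50% there. The class holds Rlim, a ubiquitin ligase that promotes Xist expression, at 2.84%, 3.56% and 3.86% over 55 sites. It also holds the chromatin remodeller Atrx at 6.28%, 6.16% and 9.07% over 45 sites and the ubiquitin ligase Huwe1 at 3.21%, 2.66% and 4.50% over 21 sites. Sh3bgrl, a small thioredoxin-like protein, had 4.22%, 3.45% and 5.04% over 32 sites. In Rlim 35 of 55 sites had no reference read on day 35, while its highest site stood at 83.6% on day 52.

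Small rises were nevertheless measured within this class. Pdha1, a subunit of pyruvate dehydrogenase, had 2.92%, 2.66% and 6.69% over 17 sites with 2911 to 3290 reads. All 17 sites were higher on day 56 than on day 52, and the 4.02 point change passed on adjusted p (7.9e-12) but not on size. Rps4x, a ribosomal protein, had 2.40%, 5.24% and 9.03% over 3 sites, and both changes passed on adjusted p (1.2e-06 and 1.32e-06). Cox7b, a subunit of cytochrome oxidase, had 4.46%, 5.45% and 8.82%. "Steady" here therefore means a change under 10 points, not a change of 0. Gm14681, a processed pseudogene whose reads may come from its parent gene, had 0.63%, 0.55% and 0.60% over 5 sites with 11611 to 12810 reads a day.

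A site where both chromosomes carry the variant would also stay low, and such sites cannot be told apart here from silent ones. Of 794 sites of the low and steady genes listed on all 3 days, 66 had no reference read on any day. Of the 92 genes, 2 reached 20% or more in another library of the series. Med14, another Mediator subunit, had 26.9% to 45.4% over days 18 to 36 of MidK2, a second course with 30 nM Shield1, and Tspyl2 had 21.5% on day 22 of that course. The MidK2 tables were called with other limits, so these levels are given side by side only.

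The course without Shield1 gives a measure of what the same days brought under the same vector. LowK had 12 genes higher from day 35 to day 52 (4.94%) and 9 from day 52 to day 56 (3.56%), with medians of 0.448 and 1.11 points. A Wald test of the MidK1 change minus the LowK change, over sites listed in all 4 tables and called by the same 2 limits, found 6 of 212 genes with a larger change in MidK1 in the first step (2.83%) and 7 with a smaller one (3.3%). In the second step 0 of 222 genes had a larger change in MidK1 and 2 a smaller one (0.901%).

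The 6 genes with a larger first change in MidK1 were Klhl13, Rbmx2, Praf2, Uba1, Sept6 and Pcsk1n. Klhl13 went from 15.2% to 41.7% in MidK1 and from 0.694% to 1.67% in LowK, a difference of changes of 25.6 points (SE 5.47). Uba1 went from 22.0% to 43.8% in MidK1 and from 3.42% to 4.60% in LowK over 12 sites, a difference of 20.6 points (SE 1.54). Sept6 reached 30.1% in MidK1 and 3.53% in LowK on day 52. Except for Rbmx2, at 15.4%, LowK had less than 5% at these genes on day 52.

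The 7 genes with a smaller first change in MidK1 included several that stood high there by day 35. Dynlt3 stayed at 63.2% and 63.3% in MidK1 while LowK went from 5.30% to 22.9% over the same 20 sites, a difference of -17.4 points (SE 2.28). Alg13 and Tmsb4x, also plateau genes, differed by -13.8 and -12.5 points. Plateau genes have small MidK1 changes by definition, so a smaller change than in LowK is partly built in for them. Fundc1 and Porcn differed by -24.3 and -27.2 points, from 3 and 2 sites. Gpkow, an RNA-binding protein of the spliceosome, went from 55.0% to 41.9% in MidK1 and from 3.73% to 14.4% in LowK over 11 sites. Over all 17 of its shared MidK1 sites the first change was -6.82 points and was not called. Hdac6, a cytoplasmic deacetylase, went from 28.5% to 32.8% in MidK1 and from 4.78% to 19.5% in LowK.

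**Figure D4:**
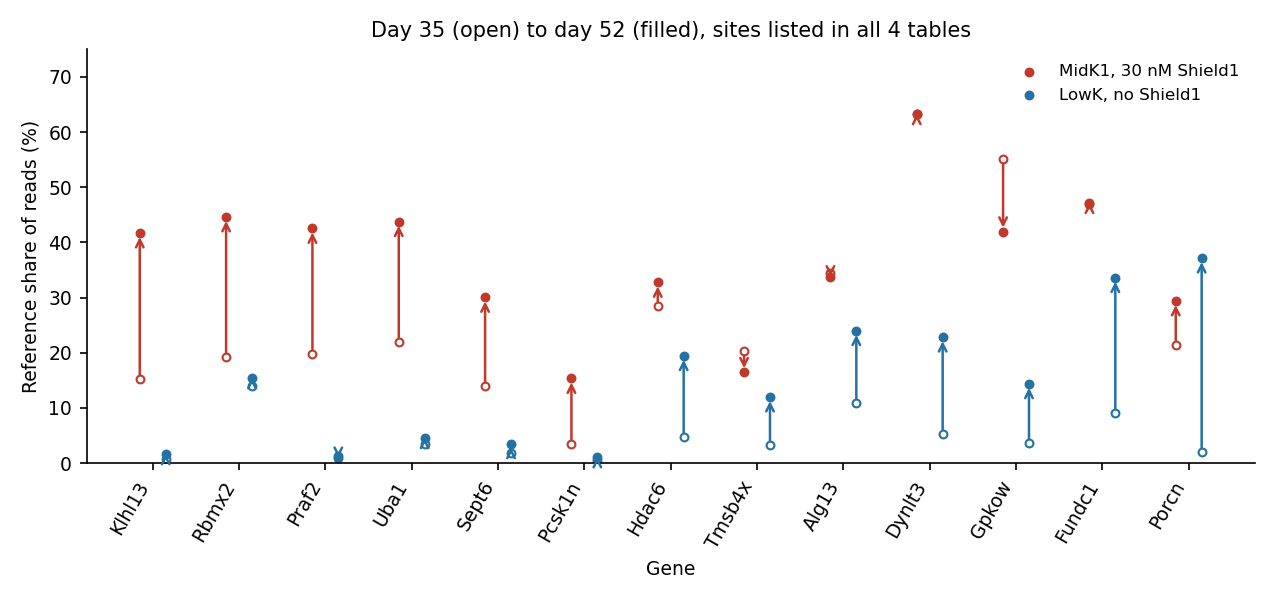
Reference share (%) on day 35 (open circles) and day 52 (filled circles) in MidK1 (red) and LowK (blue) for the 13 genes whose change differed between the courses, over sites listed in all 4 tables. The first 6 genes have long red arrows and short blue ones, and at Dynlt3 the blue arrow rises from 5.30% to 22.9% under level red points.

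Plateau genes can be followed to day 56 in LowK. Over sites listed in all 6 tables, Dynlt3 had 5.30%, 22.9% and 36.1% in LowK on days 35, 52 and 56. Tfe3 had 3.86%, 9.01% and 16.0%, Wdr13 2.14%, 11.5% and 20.5%, and Bcor 3.47%, 9.99% and 14.4%. All 4 were below their MidK1 shares on each day. Over the whole course from day 35 to day 56, the change was smaller in MidK1 for 7 of 223 genes (3.14%), Dynlt3, Bcor, Alg13 and Tmsb4x among them, and larger for 12 (5.38%). For Dynlt3 that difference was -32.8 points (SE 2.20). These 4 named genes are plateau genes, so a smaller change in MidK1 where LowK rose is partly built in. Ddx3x had 38.9%, 43.8% and 47.8% in LowK, nearer to its level in MidK1.

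Position along the chromosome was read from the annotated gene starts. In the first 30 Mb, 9 of 45 genes were called higher in the first step (20%), against 9 of 188 beyond it (4.79%). In the second step the counts were 8 of 48 (16.7%) and 8 of 187 (4.28%). Over the whole course they were 18 of 50 (36.0%) and 12 of 187 (6.42%), with median changes of 9.25 and 2.46 points. Between 120 and 150 Mb no gene was called in either step, of 35 tested in each. LowK showed the same order from day 35 to day 56, with 13 of 45 genes higher in the first 30 Mb (28.9%) and 8 of 201 beyond it (3.98%), where 8.47% of all LowK genes were called higher. No test was made of these regional counts.

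Functional lists gave small counts, which are read against 7.69% and 6.78% of all genes higher in the 2 steps. Among genes known to escape silencing, 8 of 13 were tested, Firre was the only one called, and 4 (Ddx3x, Pbdc1, Utp14a and 1810030O07Rik) were at a plateau. In the ubiquitin pathway 2 of 9 genes rose in the first step (Klhl13 and Uba1) and 1 of 8 in the second (Klhl13), and 4 of the list were low and steady. Of 5 genes of the proton pump and lysosome, Atp6ap2 and Lamp2 rose in the first step and Atp6ap2 in the second. The first 2 lists had median first changes of 2.32 and 0.719 points.

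Genes of chromatin and transcription gave no call in the first step, of 25 tested. In the second step 2 of 26 rose (Med12 among them), near the 6.78% of all genes. In this list 13 genes were low and steady, and 2 (Bcor and Tfe3) were at a plateau. Ogt went from 7.18% to 13.1% in the first step, which passed on adjusted exact p (0.00158) but not on size. Over the whole course Hdac6 was the only 1 of 26 called. Of 16 housekeeping and metabolic genes, Sms fell in the first step and rose in the second, and 9 were low and steady. All 16 were higher in value on day 56 than on day 52, with a median of 3.93 points, where 174 of all 236 genes were higher and the median was 2.37 points. Of 6 cytoskeletal genes, Sept6 rose in the first step and 0 in the second.

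Cell type markers on the X chromosome were limited to genes that hold variants. Of 10 tested genes highly expressed in fibroblasts, 3 rose in the first step (Bgn, Lamp2 and Timp1) and Bgn in the second, and over the whole course 6 of 11 rose, where 12.6% of all genes did. The share of reads on 10 fibroblast-expressed genes with sites on all 3 days was 5.76%, 5.86% and 5.82%. Only this sum was level, and single members moved in different directions. Reads on Bgn were lower on day 52 and higher again on day 56. Reads on Timp1 rose in both steps, and those on Tmsb4x fell in both. Over 4 genes of the pluripotency and germline list with sites on all 3 days the share was 1.56%, 2.12% and 1.99%. Most of these reads lay on Tfe3, with 1681 of 1858, 2232 of 2516 and 2017 of 2379. Only 5 of the 12 members of that list had a site in any MidK1 library. The trophoblast gene Esx1 took 0.765%, 1.44% and 1.12%. None of the 8 blood markers had a listed site, which can also mean no variant there, and 2 of 6 neuronal markers had one but none on all 3 days. These reads are of listed sites only, and their part in the allelic changes was not tested.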

How the data were processed

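Per the labels' protocols, poly(A) RNA was made into directional libraries and sequenced as read pairs. Variants were called by the authors in CLC Genomics Workbench (Basic Variant Call), as the series description says. The submitters' processing notes name build mm10. The sources used here name no aligner and no settings. Per the file headers, the deposited tables give for each variant the count of reads with it, the count of covering reads and its frequency in percent, none of them normalised.

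Variant and other reads were summed per gene over single-base sites with at least 20 covering reads in both tables. Of 317 MidK1 positions with several gene names, 191 went to the only gene whose exon covers the position in GENCODE M21, and 126 were left out. Two-sided Fisher's exact tests were adjusted by Benjamini-Hochberg over the genes of a step, and a call needed an adjusted p under 0.05 and 10 points. Shares have 95% Wilson intervals and differences 95% Newcombe intervals, which cover counting error only. These intervals and the Fisher p-values understate even that error where 1 read covers several sites. Reads also carry no molecular identifiers, so copies of 1 molecule cannot be set aside. Wald tests, with 0.5 added to each read class, compared MidK1 with LowK. The test of the first against the second change, the whole-course test against LowK, the centred differences and the sites 300 bases apart were added after the data were seen. Named genes were up to 12 called genes with several sites per step and direction by size, up to 8 plateau and 8 low and steady genes by coverage, and called members of the lists. Genes outside this rule (among them Wdr45, Gpkow, Hdac6, Med14, Tspyl2, Pbdc1, Wdr13, 1810030O07Rik, Tmsb4x, Ftsj1, Pcsk1n, Ebp, Araf and Prdx4) complete a class or a count and were chosen after their values were seen. The members and lists were chosen with earlier results of these data known. Alternatives were other coverage minimums, a limit of 20 points, 1 site per gene, at least 3 sites, sites on all 3 days, and no site with several names. Python 3.11.15, pandas 2.3.3 and scipy 1.17.1 were used, and the calls were tested on simulated data. Those reads were drawn independently, so reads shared by sites, copies of 1 molecule and shifts between libraries were not covered. Results for 1 called gene are not reported here.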

Additional observations from a re-analysis of the deposited data

Results flagged for a closer look

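These genes changed by a different amount in MidK1 than in LowK over the same days, by a Wald test of the difference itself with adjustment over all genes tested. From day 35 to day 52 the change in MidK1 was larger by 25.6 points for Klhl13, 24.1 for Rbmx2, 23.1 for Praf2, 20.6 for Uba1, 14.5 for Sept6 and 11.4 for Pcsk1n. It differed by -27.2 points for Porcn, -24.3 for Fundc1, -23.8 for Gpkow, -17.4 for Dynlt3, -13.8 for Alg13, -12.5 for Tmsb4x and -10.4 for Hdac6. From day 52 to day 56 it differed by -33.4 points for Timp1 and -14.4 points for Dynlt3. Timp1 went from 53.1% to 47.5% in MidK1 and from 16.4% of 73 reads to 44.1% of 111 reads in LowK, over 3 sites. Each value compares 4 single libraries. Dynlt3, Alg13 and Tmsb4x are plateau genes, for which a smaller change in MidK1 is partly built in.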

How the results depend on the processing

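No alternative reversed any of the 30 named calls, and calls outside these were not followed gene by gene. With a minimum of 50 reads, 8, 9 and 17 genes were called in the first step, the second step and the whole course, against 20, 16 and 30. At 20 points the counts were 6, 1 and 9. With 1 site per gene they were 5 and 1 in the 2 steps. With sites at least 300 bases apart they were 11 and 6. Centring gave 8 in the second step and 19 over the course. Genes differing from LowK in the first step, 13 as reported, numbered 6 at 50 reads, 7 at 20 points and 5 with 1 site. In the second step, 2 as reported, they numbered 1 at 50 reads, 1 at 20 points, 1 without sites of several names, 0 with 1 site and 0 with sites 300 bases apart. Plateau genes, 12 as reported, numbered 27 at 20 points, 3 with 1 site and 7 with sites 300 bases apart. Low and steady genes, 92 as reported, numbered 45 at 50 reads, 147 at 20 points and 44 with 1 site. Of 30 named calls, the single-site setting kept 3, the 300-base setting 12, the 20-point limit 6, centring 25 and a minimum of 10 reads 21. Among these 30, only the first-step calls of Uba1 and Klhl13 passed in every setting in which they were tested. No paired analysis was possible because each day of a course is 1 library. Sites with 20 to 40 reads hold few reference reads, so many thinly read genes stay unresolved.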

Other observations

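Hidden from the per-gene sums are sites that entered or left the tables. Of the day 35 sites with at least 20 reads, 155 (7.06%) were not listed on day 52, and their median reference share was 62.1%, against 4.35% for shared sites. Of the day 56 sites, 156 (6.51%) were not listed on day 52, with a median of 49.2% against 9.09%. Bcor held 25 of the former (median 73.1%) and 11 of the latter (median 70.5%), and Gm21887 held 17 of the latter (median 74.4%). Firre had 7 sites on day 56 that day 52 did not list, with a median of 71.4%. Whether on day 52 such sites had too few covering reads, had fewer than 5 variant reads or became all reference cannot be told apart.

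Among the 86 unresolved genes, 10 were called higher over the whole course without a call in either step. Over all genes 30 of 238 were called higher (12.6%), so this count was near the overall share. Otud5, a deubiquitinase, had 4.08% on day 35 and 23.7% on day 56, a rise of 19.6 points (adjusted Fisher p = 9.82e-05). Usp9x, another deubiquitinase, rose by 14.3 points (adjusted exact p = 5.08e-06), and Hdac6 by 10.3 points (adjusted exact p = 3.05e-06). Las1l, a ribosome assembly factor, went from 50.2% to 42.0% in the first step over 15 sites, which passed on adjusted p (0.00188) but not on size. Kdm6a, a histone demethylase known to escape silencing, had 72.4% of 76 reads on day 35 and 56.0% of 109 reads on day 52, a change of -16.4 points that did not pass (adjusted exact p = 0.142).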
